A study of Caenorhabditis elegans with 2 samples.

Results

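Small nucleolar RNA (snoRNA) genes that are not enclosed by a host gene of their own strand were examined for binding of the transcription factor DIE-1 in whole Caenorhabditis elegans. In the Ensembl WBcel235 gene models (the ce11 build), 163 of the 346 nuclear snoRNA genes met this rule. Of these, 38 lay antisense to a protein-coding gene, and the remaining 125 are called intergenic. Among the 125, only T23G11.12 partly overlapped a protein-coding gene of its own strand. The other 183 lay wholly within a gene of the same strand and are called hosted below. In the chromatin immunoprecipitation experiment, 1 group of 2 biological replicates came from strain RW10316. Its worms carried a transgenic insertion of die-1 with a C-terminal GFP-FLAG tag, and the immunoprecipitation used an antibody against GFP, although another label names die-1 as the antibody's target. The worms were hermaphrodite young adults, taken whole 64 hours after synchronization as starved L1 larvae. The labels do not name the promoter of the transgene, and whole worms do not show which cells held the bound protein. The control was not analysed here, and with 1 group no comparison between conditions existed, so counts and levels are given without a test.

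A snoRNA guides chemical changes on ribosomal and spliceosomal RNA. Box C/D snoRNAs work with fibrillarin in 2′-O-methylation and box H/ACA snoRNAs with dyskerin in pseudouridylation. Many animal snoRNAs are cut out of host introns, and those without a host need a promoter of their own. Transfer RNA (tRNA) genes carry their promoter inside the gene, as an A box and a B box that the RNA polymerase III factor TFIIIC recognises, while small nuclear RNA (snRNA) genes have a proximal sequence element upstream. DIE-1 is a zinc finger protein known from embryonic morphogenesis and from the left-right asymmetry of the ASE neurons.

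Many of the strongest peaks at these genes lay over or near short stretches that read like the A and B boxes of a tRNA gene, placed before the snoRNA. Genes with a peak but neither these stretches nor the word described next had a similar median signal, 300.9 against 305.8. The sequences below are from the RefSeq copy of WBcel235 and run from 90 bases upstream of the annotated 5′ end to 15 bases inside the gene, for 6 of the 8 genes of highest signal with such a pair (T19B4.8 and ZK484.9 are not shown). Capitals mark the A letters (TGGCNNAGT) and the B letters (GTTCNANNC, N being any base), each with at most 1 mismatch.
F32E10.10 (chrIV:7574032-7574136, plus strand): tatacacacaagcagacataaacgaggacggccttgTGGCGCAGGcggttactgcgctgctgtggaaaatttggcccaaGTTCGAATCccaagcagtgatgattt
T06C12.16 (chrV:15873912-15874016, minus strand): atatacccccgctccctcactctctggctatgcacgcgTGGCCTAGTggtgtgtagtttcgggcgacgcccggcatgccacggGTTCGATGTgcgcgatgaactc
W03C9.9 (chrII:11960808-11960912, plus strand): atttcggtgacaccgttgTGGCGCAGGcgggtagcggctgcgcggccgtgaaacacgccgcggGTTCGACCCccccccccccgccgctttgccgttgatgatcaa
Y75B12B.12 (chrV:15191079-15191183, minus strand): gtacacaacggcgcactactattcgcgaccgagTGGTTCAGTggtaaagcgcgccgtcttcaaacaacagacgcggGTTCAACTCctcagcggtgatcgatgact
T03F7.8 (chrV:11314168-11314272, plus strand): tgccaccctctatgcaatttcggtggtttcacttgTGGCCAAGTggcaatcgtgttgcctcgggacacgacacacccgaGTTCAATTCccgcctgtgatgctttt
C41C4.11 (chrII:8107256-8107360, minus strand): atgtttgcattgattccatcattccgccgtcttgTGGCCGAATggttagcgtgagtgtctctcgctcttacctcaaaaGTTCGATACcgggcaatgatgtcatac
In these 6 genes the A letters began 52 to 72 bases upstream of the gene and the B letters 43 to 45 bases after them.

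Another set of genes carried the word CGGAAC at about the same distance upstream. The windows of 5 such genes with a peak are printed over the same span, with that word in capitals.
Y55F3BR.9 (chrIV:867119-867223, minus strand): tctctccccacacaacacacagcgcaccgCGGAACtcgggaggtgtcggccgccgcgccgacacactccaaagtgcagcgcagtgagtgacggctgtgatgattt
Y53F4B.47 (chrII:15025879-15025983, minus strand): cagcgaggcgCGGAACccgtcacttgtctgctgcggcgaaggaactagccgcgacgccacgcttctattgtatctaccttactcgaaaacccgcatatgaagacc
W03B1.17 (chrIV:4347542-4347646, plus strand): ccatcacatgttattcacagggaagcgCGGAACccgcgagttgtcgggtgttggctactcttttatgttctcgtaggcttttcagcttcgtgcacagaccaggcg
Y67A10A.14 (chrIV:14327107-14327211, minus strand): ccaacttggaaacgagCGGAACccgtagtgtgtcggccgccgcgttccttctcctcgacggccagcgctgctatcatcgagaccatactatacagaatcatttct
T26A8.6 (chrIV:8428725-8428829, minus strand): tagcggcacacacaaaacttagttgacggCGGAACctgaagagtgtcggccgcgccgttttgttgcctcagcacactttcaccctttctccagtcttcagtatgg
The letters TGTCGG, looked for after the windows had been seen, followed 8 to 20 bases after the start of the word in 8 of the 9 such genes with a peak, Y53F4B.47 being the exception. They did so in 6 of the 13 without a peak, and in 13 of the 34 snRNA genes with CGGAAC.

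Not every gene with these letters had a reproducible peak, and 3 without one are printed for comparison. Y59E1B.14 has an exact A and B pair, and C16D9.10 and smy-3 have CGGAAC. C16D9.10 and smy-3 were drawn from the CGGAAC genes without a peak whose surrounding 31-base words all occur once in the genome.
Y59E1B.14 (chrX:1891419-1891523, plus strand): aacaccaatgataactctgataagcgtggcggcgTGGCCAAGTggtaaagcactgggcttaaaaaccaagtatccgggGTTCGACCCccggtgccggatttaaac
C16D9.10 (chrV:8247947-8248051, minus strand): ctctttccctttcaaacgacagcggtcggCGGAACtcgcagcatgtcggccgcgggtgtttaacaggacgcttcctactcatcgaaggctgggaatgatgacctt
smy-3 (chrV:14092482-14092586, plus strand): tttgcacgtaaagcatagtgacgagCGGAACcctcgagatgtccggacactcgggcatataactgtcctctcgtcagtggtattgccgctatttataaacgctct
The 3 windows hold their capitals at places within the range seen at the genes with a peak.

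The genes themselves are short, and 3 are printed whole to show the marks of their class. Capitals are box C (TGATGA, at most 1 mismatch) and box D (CTGA) at W03C9.9 and T06C12.16, and the ACA box at T04A8.17.
W03C9.9 (chrII:11960898-11960959, plus strand): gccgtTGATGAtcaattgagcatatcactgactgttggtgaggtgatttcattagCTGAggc
T06C12.16 (chrV:15873855-15873926, minus strand): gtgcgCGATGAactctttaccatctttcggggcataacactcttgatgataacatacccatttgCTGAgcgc
T04A8.17 (chrIII:4689634-4689771, minus strand): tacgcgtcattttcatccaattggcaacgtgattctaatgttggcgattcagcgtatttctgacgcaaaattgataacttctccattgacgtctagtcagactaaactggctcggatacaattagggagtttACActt
Box C/D letters without a mismatch were found in 8 of the 163 genes, and with 1 mismatch in box C in another 15. A further 24 had ACA 3 to 6 bases before the 3′ end, here called the H/ACA mark, and 116 had neither mark. Over all nuclear genes the same letters were found in 0.12% (box C/D), 1.07% (1 mismatch) and 6.46% (H/ACA mark), so the short H/ACA mark alone does not show the class. The biotype thus rests on the annotation alone for most of the genes.

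A reproducible peak, one in the list that the authors made from both replicates, had its summit within 200 bp of 41 of the 163 genes (25.2%, 95% Wilson interval 19.1 to 32.3%). Over all 46890 nuclear genes the share was 4.41%, and over the nuclear genes no longer than the longest of the 163 it was 4.46%. The intervals treat genes as units, which are not replicates. The 41 genes had 41 different summits, 1 each, and none of the 41 had another short RNA gene within 200 bp. No summit lay in an exon of a protein-coding gene, 9 lay in introns of protein-coding genes, and 13 fell in a promoter window, which reached 1000 bp before and 300 bp after a protein-coding transcript start. The matching shares over all nuclear peaks are not given here, so these counts only place the summits. Of the 50 strongest nuclear peaks of the experiment, 20 were at these genes. Among the 1411 nuclear peaks the median rank of the 41 was 62, and ranks ran from 3 to 1157.

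The signal of a peak is the authors' own enrichment value, on a scale not given in the sources used here. It ran from 88.8 to 503.4 at the 41 genes, with a median of 278.9, against a median of 114.9 over all nuclear reproducible peaks. The relaxed lists, which also hold weak peaks and background, were scored by the authors for each replicate and for the pool, so values are comparable within a list only. All 41 genes had a summit in both replicate lists, where their medians were 111.0 in replicate 1 and 154.9 in replicate 2.

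**Figure D1:**
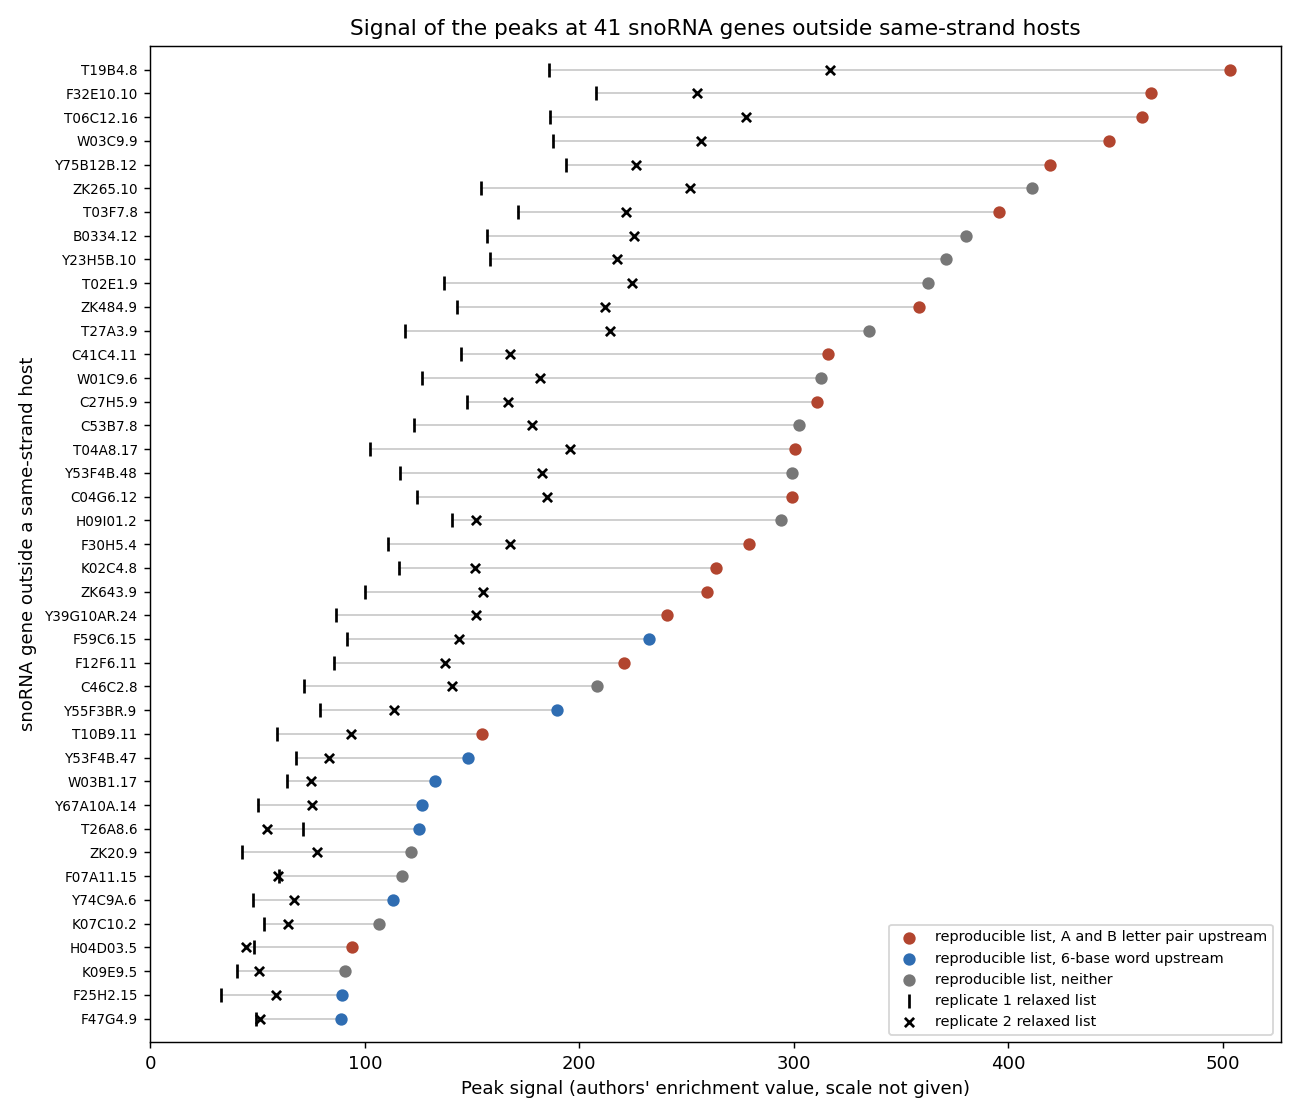
Signal of the peak at each of the 41 snoRNA genes, in order of signal: coloured dots give the reproducible list, bars replicate 1 and crosses replicate 2, and the colour gives the letters found upstream. The first 5 genes, from 419.4 to 503.4, carry an A and B letter pair, and the genes with the 6-base word lie between 88.8 and 232.3.

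T19B4.8, an intergenic gene on chromosome I, had the highest signal of the set, 503.4, with 186.1 in replicate 1 and 316.7 in replicate 2. F32E10.10 on chromosome IV followed with 466.4, and with 207.8 in replicate 1 and 254.7 in replicate 2. T06C12.16 on chromosome V, with box C/D letters (1 mismatch), had 462.4, with 186.3 in replicate 1 and 277.8 in replicate 2. T19B4.8 ranked 3 among the nuclear reproducible peaks, and the summits of these 3 genes lay 48, 40 and 38 bp upstream of the gene in the order given. W03C9.9 on chromosome II, which holds exact box C/D letters, had 447.1, with 187.9 and 257.0 in replicates 1 and 2. Its summit, 94 bp upstream, was the farthest upstream of the 41, and its A letters also began farthest upstream, at 72 bp. Y75B12B.12 on chromosome V had 419.4, with 194.0 in replicate 1 and 226.5 in replicate 2, and a summit 34 bp upstream. All of these first 5 genes carry the letter pair and are intergenic.

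ZK265.10 on chromosome I had 411.0, with 154.3 in replicate 1 and 251.8 in replicate 2, and neither pair nor word upstream. T03F7.8 lies antisense to the cuticlin-like gene cutl-18 on chromosome V and had 395.9, with 171.5 in replicate 1 and 221.9 in replicate 2. Y23H5B.10 on chromosome I had 371.0, with 158.3 in replicate 1 and 217.4 in replicate 2. Like ZK265.10, it had neither set of letters, and both summits lay upstream, at 63 bp for ZK265.10 and 46 bp for Y23H5B.10. T02E1.9, antisense to the sperm gene spe-12 on chromosome I, had 362.5, with 136.9 in replicate 1 and 224.5 in replicate 2, and holds the H/ACA mark.

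The weakest of the 41 were K09E9.5 on chromosome X and F25H2.15 and F47G4.9 on chromosome I. K09E9.5, with the H/ACA mark, had 90.8, with 40.5 in replicate 1 and 50.9 in replicate 2. F25H2.15 had 89.3, with 33.1 in replicate 1 and 58.5 in replicate 2. F47G4.9 had 88.8, with 49.2 in replicate 1 and 51.2 in replicate 2. The lowest signal of any nuclear peak in the reproducible list was 79.4, so these 3 lay close to where that list ends.

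By the letter marks, which alone do not settle the class, 4 of the 8 genes with exact box C/D letters had a peak. So did 10 of the 15 with 1 mismatch in box C, 9 of the 24 with the H/ACA mark and 18 of the 116 with neither. The 18 include B0334.12 and K07C10.2, which hold box C/D letters on the other strand, as described below. The median signal at genes with a peak was 234.1 for exact box C/D letters and 298.3 for those with 1 mismatch. It was 263.6 for the H/ACA mark and 265.7 for neither. The ranges of these 4 sets overlapped. Among antisense genes 12 of 38 had a peak (31.6%), and among intergenic genes 29 of 125 (23.2%). Their Wilson intervals, 19.1 to 47.5% and 16.7 to 31.3%, overlapped. By chromosome the counts were 11 of 38 on I, 13 of 36 on II, 4 of 16 on III, 8 of 31 on IV, 3 of 19 on V and 2 of 23 on X.

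Summits lay before the gene more often than in it. The offset of the strongest summit from the annotated 5′ end, negative upstream, had a median of -36 bp and quartiles of -49 and -3 bp. It was upstream at 31 of the 41 genes and between 20 and 70 bp upstream at 28. In the replicate lists the median was -45 bp in replicate 1 and -35 bp in replicate 2, and the summits of a gene differed between replicates by a median of 16 bp. The farthest downstream was at F07A11.15, a gene of 271 bp antisense to din-1 on chromosome II, 134 bp inside the gene. Its signal was 117.6, with 60.01 in replicate 1 and 59.3 in replicate 2.

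B0334.12, antisense to the potassium channel gene twk-5 on chromosome II, had the eighth signal of the set and a summit that did not lie before the gene. Its signal was 380.3, with 157.1 in replicate 1 and 225.5 in replicate 2, and the summit lay 110 bp downstream of the annotated 5′ end, beyond the gene's 3′ end. Its letters were also read on the other strand, a reading made after its values were seen. The stretch before the gene on that strand holds an A and B pair without a mismatch, starting at -62 and -18 bp, and the gene holds box C (1 mismatch) and box D letters that the annotated strand lacks.
B0334.12 upstream on the other strand (chrII:11484738-11484842, minus strand): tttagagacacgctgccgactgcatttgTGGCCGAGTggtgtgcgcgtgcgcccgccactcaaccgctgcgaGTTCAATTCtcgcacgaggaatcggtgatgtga
B0334.12 gene on the other strand (chrII:11484683-11484752, minus strand): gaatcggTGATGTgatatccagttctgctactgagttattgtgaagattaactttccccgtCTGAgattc
On that strand the summit of B0334.12 lay 41 bp upstream, at 23 bp in replicate 1 and 45 bp in replicate 2. The pair was found on the other strand only at 4 of the 163 genes. Of the other 3, C54G4.16 and F56A12.6 had no reproducible peak. The summit of F25H2.15, a gene of 178 bp, lay 49 bp upstream on its own strand. Read on the other strand it was at 226 bp, beyond the far end of the gene. K07C10.2 (signal 106.6) also holds box C/D letters, without a mismatch, on the strand opposite to its annotation. Its summit lay 84 bp downstream of the annotated 5′ end, which is 2 bp inside the gene from the other end. The replicates differed there, since on the other strand the summit was at -50 bp in replicate 1 and 68 bp in replicate 2.

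The searches for the letter pair, with at most 1 mismatch in each part and 25 to 100 bases between their starts, and for CGGAAC were chosen after the windows and the peaks had been seen. They covered 150 bp upstream to 20 bp inside the gene, on the gene's own strand, and their shares describe these genes and test nothing. The pair was found at 24 of the 163 genes, and 18 of the 24 had a reproducible peak. CGGAAC without the pair was found at 22, and 9 of the 22 had a peak. Of the 117 genes with neither, 14 had a peak. Over all nuclear genes, windows of the same length held the pair in 1.90% and CGGAAC in 1.61%. Where a gene had several pairs with the same number of mismatches, the spacing nearest 44 bases was kept, but 16 of the 18 pair genes with a peak had no such choice.

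**Figure D2:**
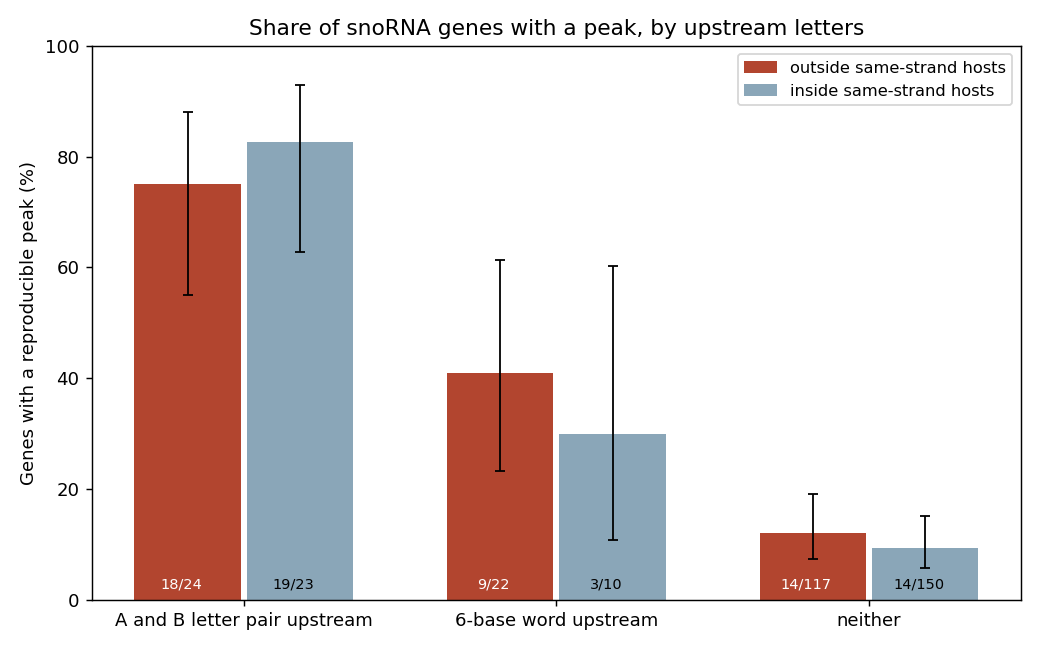
Percent of snoRNA genes with a reproducible peak, by the letters found upstream, for genes outside same-strand hosts (left bar of each pair) and hosted genes (right bar), with 95% Wilson intervals as lines and counts in the bars. The share is 75% and 82.6% with the A and B letter pair, 40.9% and 30% with the 6-base word, and 11.97% and 9.33% with neither.

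In the 18 pair genes with a peak the A letters began at -72 to -50 bp from the 5′ end (median -57.5), the B letters at -27 to -5 bp (median -14), and the B start followed the A start by 43 to 45 bp. Of the 19 pair genes with a spacing of 43 to 46 bp, a range set after the values were seen, 18 had a peak. None of the 5 with another spacing had one. Those 5 were T13E5.1, K10D2.10, C17D12.8, K04D7.17 and W01H2.11, with 30 to 98 bp between the starts. The range encloses the spacings of all 18 with a peak, so none of the 5 outside it could have one. The split was also almost that by WormBase gene number, described below. A peak was present at 18 of 19 pair genes with low numbers and 0 of 5 with high numbers. Only C17D12.8 (low) and Y59E1B.14 (high, common spacing) fell differently, both without a peak. The parts of spacing and gene number were not tested. Among hosted genes, 16 of 18 pair genes spaced 43 to 46 bp had a peak, as did 3 of 5 with another spacing. The exception at the common spacing was Y59E1B.14 on chromosome X, whose window is printed above. It had no summit within 200 bp in any of the relaxed lists, although 99.4% of the 31-base words in and around it occur once in the genome. In tRNA genes, where the pair lies inside the gene, it was found in 467 of 612 (76.3%), with a median spacing of 45 bp.

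The summit lay between the A start and the B start at 13 of the 18 pair genes with a peak, a median of 16.5 bp after the A start. K02C4.8, with the H/ACA mark and a signal of 263.6, had the summit farthest after the A start, 71 bp, and so 17 bp inside the gene. Signal at the 18 ran from 94.2 at H04D03.5, antisense to smrd-1, to 503.4 at T19B4.8, with a median of 305.8. The replicate medians were 133.7 in replicate 1 and 176.2 in replicate 2.

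**Figure D3:**
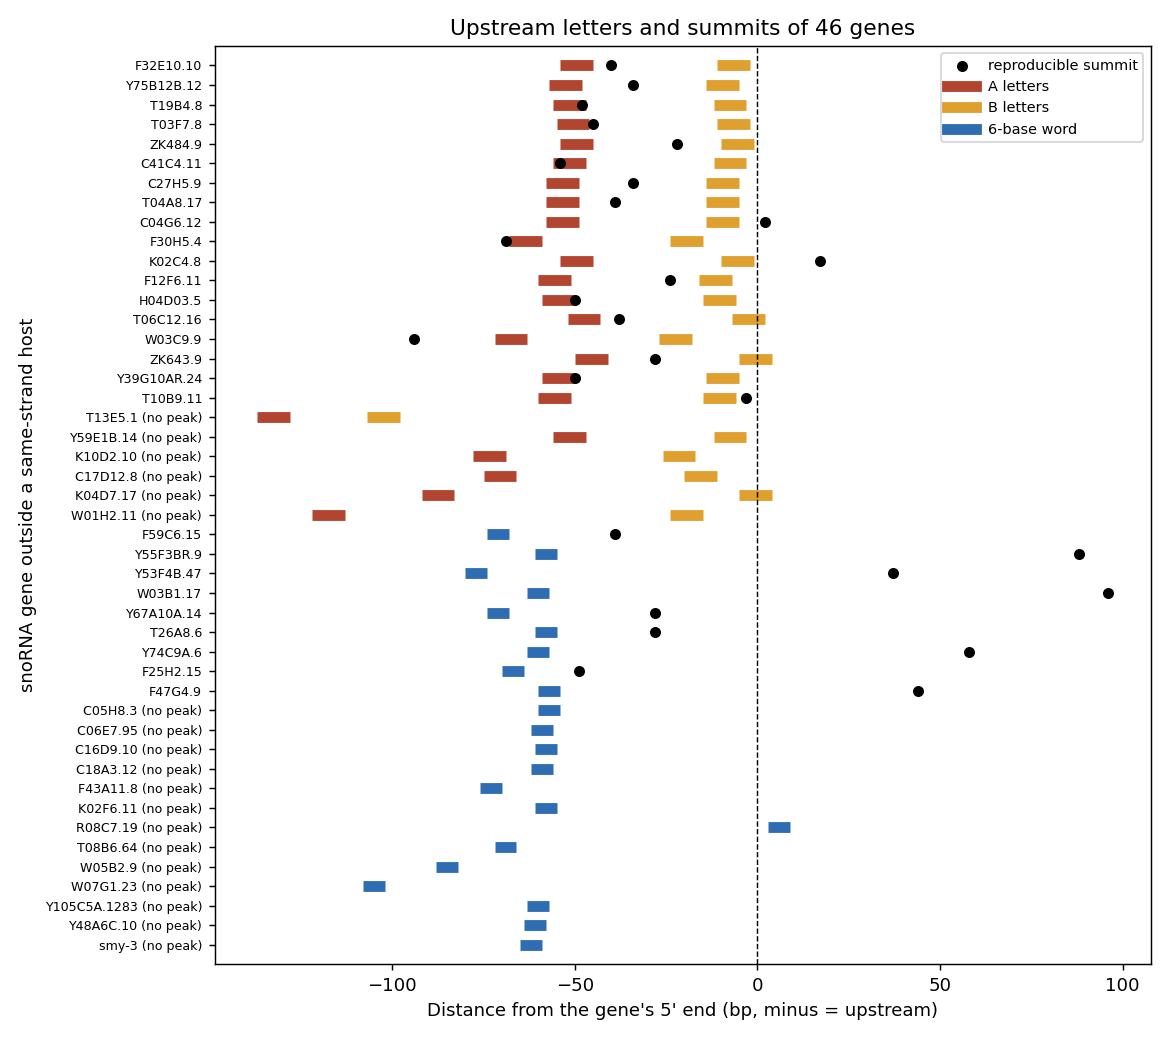
Place of the A letters (red), B letters (yellow) and 6-base word (blue) relative to the annotated 5′ end (dashed line), in bp, for the 46 genes that hold them, with the reproducible summit as a black dot. Most dots of the pair genes lie between red and yellow, while those of the genes with the word lie from 49 bp upstream to 96 bp downstream.

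Genes with CGGAAC had weaker peaks and less sharply placed summits. At the 9 with a peak the signal ran from 88.8 to 232.3, with a median of 126.5, and the replicate medians were 63.8 and 75.1 in replicates 1 and 2. Of the 18 pair genes with a peak, 15 were above the highest of them, F59C6.15 on chromosome I. The word began 60 to 80 bp upstream (median 63), but the summits had a median offset of 37 bp downstream of the 5′ end, and 4 of the 9 lay upstream. Summits in the replicates lay within 20 bp of each other at 2 of these 9 genes, at 13 of the 18 pair genes and at 9 of the 14 with neither. At Y53F4B.47, for example, the summit was 149 bp downstream in replicate 1 and 33 bp upstream in replicate 2. As a set, these 9 genes thus had both weaker peaks and less exact summits than the pair genes. Gene by gene, weak peaks were not always less exact. At the pair gene H04D03.5 (signal 94.2), the summits lay at -49 bp in replicate 1 and -51 bp in replicate 2. The part of signal strength in this spread was not tested. These 9 genes were also longer, with a median of 163 bp against 74.5 bp for the pair genes with a peak. The share of 31-base words in and around them that occur once in the genome ran from 77.5% at F59C6.15 to 100%. It ran from 91.0% at F30H5.4 to 100% at the pair genes with a peak. It fell to 37.9%, at W07G1.23, among CGGAAC genes without a peak. The parts of length and of repeated sequence were not tested.

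A peak was present at 40.9% of the CGGAAC genes (Wilson interval 23.3 to 61.3%), against 11.97% of those with neither set of letters (7.26 to 19.1%). This contrast was not seen among genes with low WormBase gene numbers, a split described below. There, 8 of 14 CGGAAC genes and 12 of 20 with neither had a peak. Among high numbers, which 97 of the 117 genes with neither had, the counts were 1 of 8 and 2 of 97. Whether the word goes with a peak apart from gene number was not tested. CGGAAC began between 56 and 80 bp upstream, a range set after the values were seen, at 19 genes, of which 9 had a peak. Its median start was 63 bp upstream both at the 9 with a peak and at the 13 without. The longer form GCGGAACC was found at 7 of the 41 genes with a peak, at 8 of the 122 without and at 0.18% of all nuclear genes. Among the 129 snRNA genes, CGGAAC was found at 34 (26.4%), beginning 56 to 74 bp upstream, and 11 of the 34 had a reproducible peak.

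**Figure D4:**
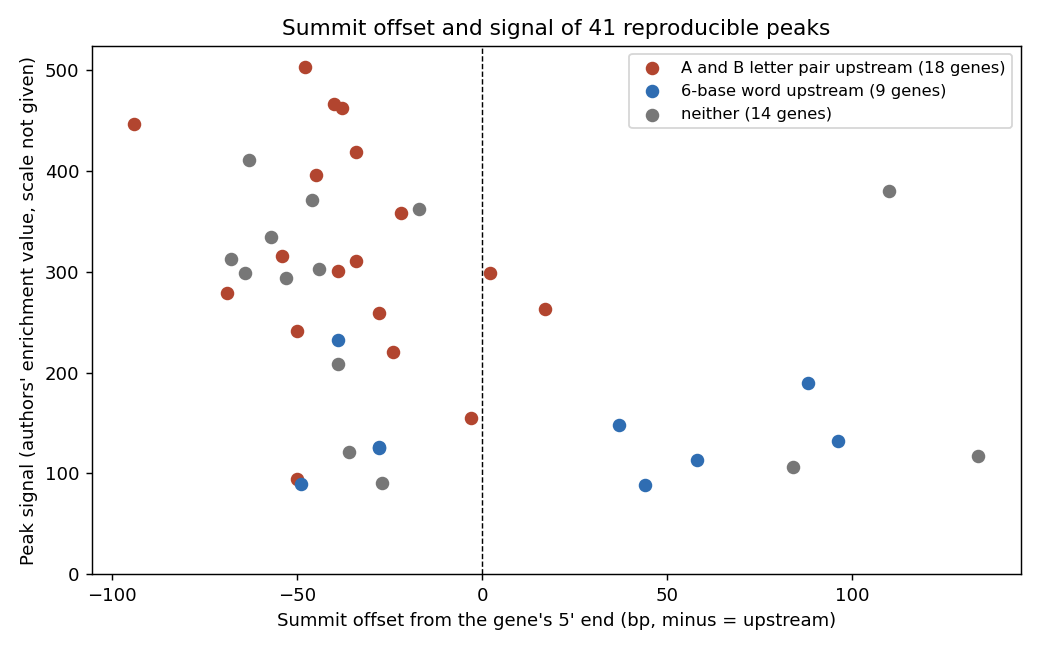
Summit offset from the 5′ end in bp, with negative values upstream, against signal for the 41 reproducible peaks, coloured by the letters found upstream. Of the 10 strongest peaks, 9 lie upstream of the gene, and the exception is B0334.12 at 110 bp downstream.

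The 14 genes with a peak and neither set of letters spanned most of the range of signal. Their median was 300.9 and the range 90.8 to 411.0, and the summit was upstream at 11 of the 14. The 14 include B0334.12, described above, which holds the pair on the other strand and whose summit was not upstream on its annotated strand. A looser pair, with at most 2 mismatches in each part, the A start 45 to 80 bp upstream and the B start 38 to 50 bp after it, was present at 7 of these 14. It was also present at 13 of the 103 genes with neither set and no peak, and at 9.85% of all nuclear genes. The 7 were T02E1.9, W01C9.6, C53B7.8, Y53F4B.48, H09I01.2, C46C2.8 and K09E9.5. ZK265.10, Y23H5B.10 and T27A3.9, with signals of 411.0, 371.0 and 334.9, did not hold even the looser pair.

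The polymerase III box letters were also searched for one at a time and without a mismatch. From 150 bp upstream to the 5′ end, TGGCNNAGT without a mismatch was found at 6 of the 41 genes with a peak, at 6 of the 122 without and at 0.44% of all nuclear genes. GTTCGANNC, the usual B box letters, was found at 8 of 41, at 1 of 122 and at 0.41% of all nuclear genes. The looser GTTCNANNC, which includes it, was found at 16 of 41, at 5 of 122 and at 2.17% of all nuclear genes. TATAAA, the core of a TATA box, was found at 4 of 41, at 13 of 122 and at 14.8% of all nuclear genes. The shorter TATAA was found at 6 of 41, at 24 of 122 and at 27.4% of all nuclear genes.

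A run of TTTT, the kind of stretch at which RNA polymerase III stops, stood in the 20 bp after the 3′ end at 29 of the 41 genes with a peak (70.7%). It stood there at 38 of the 122 without (31.1%) and at 35.7% of all nuclear genes. It was present at 14 of the 18 pair genes with a peak, at 5 of the 9 with CGGAAC and at 10 of the 14 with neither. The most frequent 6-base words upstream of the 41 included GGCGCA, at 11 of 41, 9 of 122 and 1.11% of all nuclear genes. GTTCAA was found at 11 of 41, 7 of 122 and 6.76% of all nuclear genes, and CTGGTT at 9 of 41, 2 of 122 and 2.38%. The words were ranked by their count at the 41 genes themselves. Others tied with CTGGTT were less rare at genes without a peak, such as AACCCG at 9 of 41 and 12 of 122. GGCGCA and GTTCAA also occur within the A and B letters of windows printed above, so they are not separate observations.

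Of the 122 genes without a reproducible peak, 48 (39.3%) had a summit within 200 bp in the pooled relaxed list. Replicate 1 gave 46 and replicate 2 gave 44. Counting all 163 genes, the pooled list reached 89 (54.6%), against 31.9% of all nuclear genes and 14.2% of those no longer than the longest member. The replicate 1 list reached 87 (53.4%), against 28.9% of all nuclear genes, and the replicate 2 list 85 (52.1%), against 32.2%. Each of these counts includes all 41 genes with a reproducible peak, so these shares do not describe the 122 alone. The share over nuclear genes without a reproducible peak is not given here. Longer genes meet more summits within a fixed distance, which bears on the shares over all nuclear genes. A summit in both replicate lists was found at 30 of the 122, and no summit in any relaxed list at 57.

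**Figure D5:**
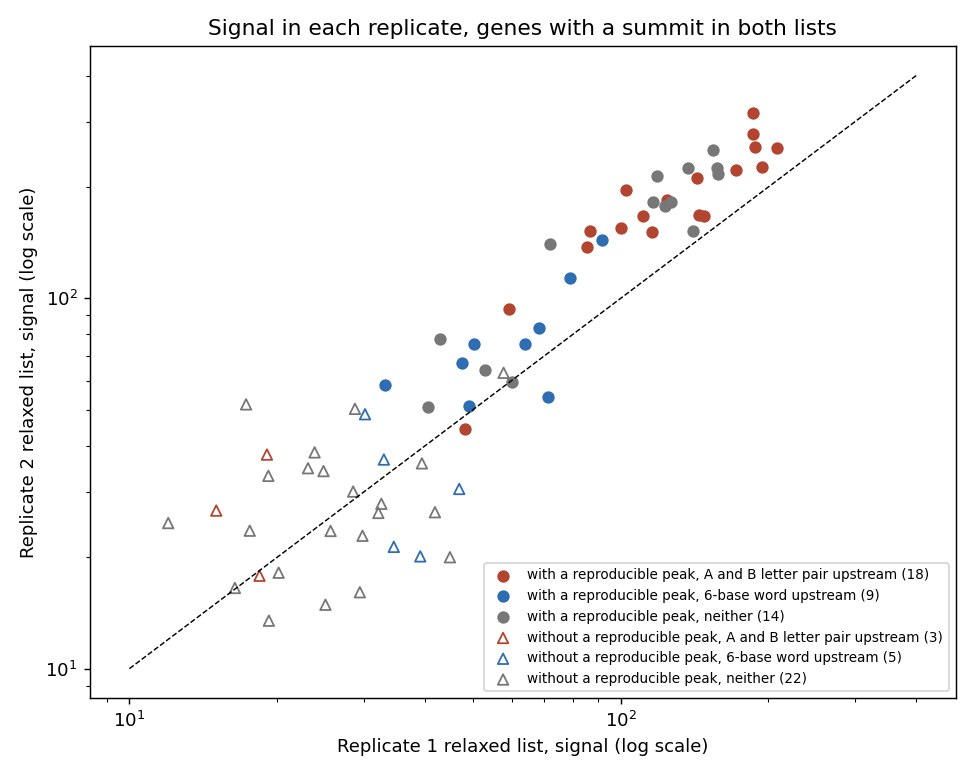
Signal in the relaxed list of replicate 1 against that of replicate 2, on log scales, for the genes with a summit in both: 41 with a reproducible peak (filled) and 30 without (open). The lists were scored separately, and the dashed line is equal value. In replicate 1 the filled points run from 33.1 to 207.8 and the open ones from 11.99 to 57.8, so the ranges overlap.

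Pooled signal at the 48 ran from 19.3 to 79.1, with a median of 40.8, against a median of 28.3 over all nuclear peaks of that list. The highest was smy-3 on chromosome V with 79.1, just under the lowest nuclear signal of the reproducible list, and it had 30.2 in replicate 1 and 48.7 in replicate 2. M7.15 on chromosome IV had 78.9, with 28.8 and 50.3 in replicates 1 and 2. ZK185.9, M03D4.78, T08B6.64 and F37A8.7 had pooled signals of 70.2 to 72.9, F09G2.14 had 67.4 and C07A9.14 had 60.8. The pooled summits of these 8 genes ran from 56 bp upstream to 153 bp downstream of the 5′ end.

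C18D1.21, which lies antisense to die-1 on chromosome II, had no summit within 200 bp in the pooled list. Yet it had the highest signal of the 122 genes in both replicate lists, 57.8 in replicate 1, with a summit 51 bp upstream, and 63.0 in replicate 2, with a summit 23 bp upstream. The worms carried a die-1 transgene, and the part of that in these values was not tested. The gene was named after its values were seen.

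Genes with no summit within 200 bp in any list included the pair genes Y59E1B.14, T13E5.1 and W01H2.11. They also included C27H5.10, W05B2.9, C55F2.3, F35H10.12 and M163.14. C27H5.10 lies antisense to pdl-1 on the same strand as C27H5.9, whose peak had a signal of 310.9 and a summit 34 bp upstream of C27H5.9. That summit was 307 bp from C27H5.10. W05B2.9 and C55F2.3 hold exact box C/D letters, so exact box letters in the gene also occurred without a summit.

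The distance of 200 bp decided few genes. The farthest summits inside it were 94 bp from W03C9.9 and 69 bp from F30H5.4, with signals of 447.1 and 278.9. Just outside it were M7.15, 209 bp from a summit of signal 153.3, and W06H8.17, 219 bp from a summit of signal 132.6.

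Genes with a peak and genes without also differed in their WormBase gene numbers, which rise as genes are added to the annotation. Numbers below 200000, a limit set after the values were seen at a gap between 195245 and 206375, belonged to 53 of the 163 genes. Of these, 38 had a reproducible peak (71.7%), against 3 of the 110 with higher numbers (2.73%). The 3 were F07A11.15, ZK20.9 and W03B1.17, with signals of 117.6, 121.5 and 132.7. Among low numbers a peak was present at 18 of 19 pair genes, 8 of 14 with CGGAAC and 12 of 20 with neither, and at all 8 with the H/ACA mark. Among high numbers it was present at 0 of 5, 1 of 8 and 2 of 97, and at 1 of 16 with the H/ACA mark.

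Length went with the gene number. It was 75.5 bp at the median for low-numbered genes with a peak and 80 bp for those without. High-numbered genes had medians of 200 bp with a peak (3 genes) and 157 bp without. Of the 38 low-numbered genes with a peak, 11 were antisense, compared with 9 of the 15 without one. The share of 31-base words that occur once in the genome, taken over the gene and 200 bp on each side, had a median of 100% in genes with and without a peak. It was under 50% at none of the 41 and at 7 of the 122. Which of these features go with binding apart from the others was not tested.

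Among hosted snoRNA genes a reproducible peak was present at 36 of 183 (19.7%, Wilson interval 14.6 to 26.03%), an interval that overlaps that of the 163. Their signal had a median of 189.2, with a range of 80.02 to 649.2, and their summits a median offset of -39.5 bp. The pair was found upstream of 23 hosted genes, 19 of them with a peak, CGGAAC at 10, with 3, and neither at 150, with 14. Outside same-strand hosts, the 18 pair genes with a peak had their A letters at a median of -57.5 bp and their summits at -38.5 bp, both before the gene. At the 19 hosted pair genes with a peak these medians were -60 and -42 bp, with summits from -67 to 399 bp. At the 467 tRNA genes with the pair the A letters began at a median of 8 bp inside the gene. At the tRNA genes with a peak the summit had a median offset of 11.5 bp, with quartiles of -7 and 45 bp, so part of them lay upstream. A peak was present at 472 of the 612 tRNA genes (77.1%), and its signal had a median of 160.8.

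Genes for proteins that act with these RNAs or their polymerases had no reproducible peak near their starts. A list of 18 held snoRNP proteins such as fib-1 (fibrillarin), nol-56, nol-58 and dkc-1 (dyskerin), the polymerase III subunits rpc-1, rpc-2 and rpc-11, the TFIIIC genes tftc-1, tftc-3 and tftc-5, and the snRNA factor gene snpc-4. None of the 18 had a reproducible summit in a promoter window, against 677 of 19973 protein-coding genes (3.39%). At that share, fewer than 1 of 18 genes would have a peak.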

How the data were processed

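The ce11 peak lists deposited by the authors were used: the reproducible list made from both replicates, and the relaxed lists of the pool (30000 peaks), replicate 1 (23789) and replicate 2 (29268). Of the 1432 reproducible peaks, 1411 were nuclear. The signal column of the deposited lists is the authors' own enrichment value, and the summit offset column (other) was read as a distance from the peak start. Aligner, peak caller, threshold and read depth: not given in the sources used here, so depth is unknown. The ce10 lists were not used.

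Genes were Ensembl 115 models and sequence was the RefSeq copy of WBcel235, the same assembly. A gene took the strongest summit within 200 bp. Unless stated otherwise, letters were searched on the gene's strand. Intervals are 95% Wilson intervals and cover counting error only. No test was run, since there was 1 group. The replicates are separate biological samples per the labels.

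The genes, the lists and the searches were chosen with earlier results of these data known. Genes named in full were the 10 of highest and 3 of lowest signal, those with the farthest summits, the 8 without a reproducible peak of highest pooled signal, up to 8 with no summit, and the nearest to the distance limit. Others were named after their values were seen. Alternatives were other distances, windows and strands, the stronger peaks alone, nearest summits, each replicate list alone, and stricter membership. Searches were checked on simulated windows and summits. Scripts ran in Python 3.11.15 with pandas 2.3.3, numpy 2.4.6, matplotlib 3.10.9 and scipy 1.17.1.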

Additional observations from a re-analysis of the deposited data

How the results depend on the processing

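The count of 41 genes with a reproducible peak was 41 within 100 bp, 46 within 500 bp and 35 with the 50% of nuclear peaks of highest signal. It was 44 to 47 when either replicate list alone was read to the same number of peaks. It stayed at 41 when any same-strand overlap removed a gene, when a summit counted for the nearest short RNA gene, and when genes beside a tRNA gene were left out. The median signal of 278.9 was the same with nearest summits and within 100 bp. The median offset was -45 to -35 bp with either replicate list alone. The 48 genes with only a relaxed pooled summit were 39 within 100 bp. TATA letters depended on the window. With 250 bp upstream to 50 bp downstream, TATAAA was found at 20.5% of genes without a peak, and TATAA at 34.1% of genes with a peak and 35.2% of those without, and TATAA on both strands at 29.5% of those without. The shares of the other A, B and TATA letters stayed within their Wilson intervals. Searches added after seeing the data gave 26 and 18 genes, with and without a peak, for the looser pair (18 and 6 for the pair), 7 and 8 for GCGGAACC (9 and 13 for CGGAAC), and 14 and 9 for box C/D letters with 1 mismatch allowed (4 and 4 without). No paired analysis was possible because the samples form 1 group and no result comes from a test. The lists hold no read counts, so a gene without a summit is one where none was listed, not one shown to be unbound.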
